A study of Mus musculus with 8 samples.

Results

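The 7 genes described here, Mbp, Pmp22, Prx, Mag, S100b, Sox10 and Egr2, mark the Schwann cells that myelinate the nerve branches within muscle, and they were chosen by name from the 24054 genes measured in SOL muscle. SOL, the soleus, is a slow postural muscle of the lower leg. RNA-seq was performed on SOL from 4 MI4KO mice and 4 flox mice, with 1 library per mouse, to ask which genes respond to loss of IRF4, a transcription factor. MI4KO mice carried floxed Irf4 on both alleles together with Myl1-Cre, a skeletal-muscle-selective recombinase, and flox mice were controls with the same floxed alleles and no Cre. All 8 mice were C57BL/6 males, their labels record a high-fat diet, and their age is not given in the sources used here. The deletion was directed to muscle fibers and not to Schwann cells, so the members were measured in cells that were not the target of the Cre. Within a group the mice are called mouse 1 to mouse 4, from the lowest to the highest number that the labels give. All 7 genes were detected in every mouse, with at least 4 reads each.

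In a peripheral nerve, each myelinating Schwann cell wraps its membrane around 1 stretch of a motor or sensory axon, which lets impulses travel quickly. The transcription factor SOX10 specifies the lineage and switches on EGR2 (also named KROX20), and both factors together turn on the genes of the myelin sheath. In whole muscle these transcripts come from a small number of cells, and in such bulk samples fewer Schwann cells and less RNA per Schwann cell cannot be told apart. None of the genes is wholly private to Schwann cells. Mbp and Mag are also made by oligodendrocytes of the central nervous system, Pmp22 by fibroblasts, S100b by adipocytes, Sox10 by melanocytes, and Egr2 by macrophages and, as an immediate early gene, by many stimulated cells.

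The start regions of Prx and Mag are shown because both genes are known targets of EGR2 and SOX10, and that of Pmp22 because its most upstream start held no match to either motif. RefSeq promoter sequences (GRCm38.p6) were found for 5 of the 7 genes, all but Mbp and Sox10, with 14 start sites among them. Each line gives the 250 bases before 1 start site, read on the strand of the gene. Capitals mark matches on either strand to a relaxed EGR motif, GNGNGGGNG, or to a SOX motif, ACAANG, and no marked matches overlap.
Prx, chr7:27499074-27499323, plus strand: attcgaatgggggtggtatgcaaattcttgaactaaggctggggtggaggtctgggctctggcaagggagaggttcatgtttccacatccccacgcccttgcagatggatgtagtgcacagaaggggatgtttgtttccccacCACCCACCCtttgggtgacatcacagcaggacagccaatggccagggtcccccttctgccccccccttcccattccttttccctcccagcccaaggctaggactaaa
Mag, chr7:30914923-30915172, minus strand: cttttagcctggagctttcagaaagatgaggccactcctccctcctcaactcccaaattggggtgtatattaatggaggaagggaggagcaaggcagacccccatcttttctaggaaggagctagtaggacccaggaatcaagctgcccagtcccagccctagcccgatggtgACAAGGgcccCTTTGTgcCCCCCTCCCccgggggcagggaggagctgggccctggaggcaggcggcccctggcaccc
Pmp22, chr11:63128732-63128981, plus strand: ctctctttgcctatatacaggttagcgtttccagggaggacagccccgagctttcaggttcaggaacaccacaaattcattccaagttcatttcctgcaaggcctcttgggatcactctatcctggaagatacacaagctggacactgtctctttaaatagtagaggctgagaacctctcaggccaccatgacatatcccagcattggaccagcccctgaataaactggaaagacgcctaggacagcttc
The Prx window held 1 relaxed EGR match, which begins 107 bases before the start site. Other start windows of Pmp22, not shown, did hold relaxed EGR matches, such as 1 that begins 192 bases before its start site. In the Mag window, ACAAGG begins 77 bases before the start site and is followed by the same SOX motif on the other strand, CTTTGT, and then by a relaxed EGR match 59 bases before the start. These letters are common, since 35.8% of 32851 RefSeq promoter windows of the same length held the relaxed EGR motif and 36.3% held the SOX motif. The full EGR motif, GCGNGGGCG, was in 4.70% of all windows, a core of the interferon-stimulated response element was in 2.98%, and neither was found in the 14 windows of the 5 genes. A match is a description of letters and does not show binding.

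The deposited values are CPM, that is reads of a gene relative to all reads of the library, rescaled by TMM (trimmed mean of M-values), and they are called values here. Each was a whole multiple of what 1 read is worth in its mouse, so the reads behind it could be recovered. Reads per mouse ranged from 13417512 to 16384565, and 3 reads correspond to values of 0.181 to 0.225. The groups were compared with limma after a log2 transform of value + 1, over 11865 genes that reached 1 in 4 or more mice, and log2 fold changes are those of MI4KO against flox mice on this scale, which understates changes of genes with low values. The p-values measure the spread between these mice. SE stands for the standard error, and limma p-values are given unadjusted and after Benjamini-Hochberg adjustment over all genes tested. Irf4, the deleted gene, on chromosome 13 from 30749226 to 30766976, was at 0.686, 1.46, 1.58 and 1.68 in flox mice and at 0.725, 0.840, 0.266 and 1.03 in MI4KO mice, on 4 to 23 reads. The groups overlapped at flox mouse 1, and Irf4 fell short of the adjusted threshold (log2 fold change -0.45, SE 0.20, limma unadjusted p = 0.040, adjusted p = 1.0). The liver markers, a list of 6 genes headed by Alb, summed to 109.9 in flox mouse 1 and to 1.13 to 2.84 elsewhere. MI4KO mouse 3 held the highest value of all 8 mice for 30.9% of the genes tested, more than any other mouse.

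The members spanned a wide range of levels. Per kb of the longest coding transcript in GENCODE M21, the mean value was 22.6 for Pmp22, 5.68 for Mbp, 1.58 for Prx, 0.834 for S100b, 0.505 for Sox10, 0.240 for Egr2 and 0.216 for Mag. Pmp22 was above Mbp, and Mbp above Prx, in every mouse, whereas from Prx downward each gene overlapped the next in its range over mice. Which transcripts were counted for a gene is not given in the sources used here, and with the median length of the coding transcripts Egr2 was at 0.789 per kb and lay above Sox10, at 0.518.

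**Figure D1:**
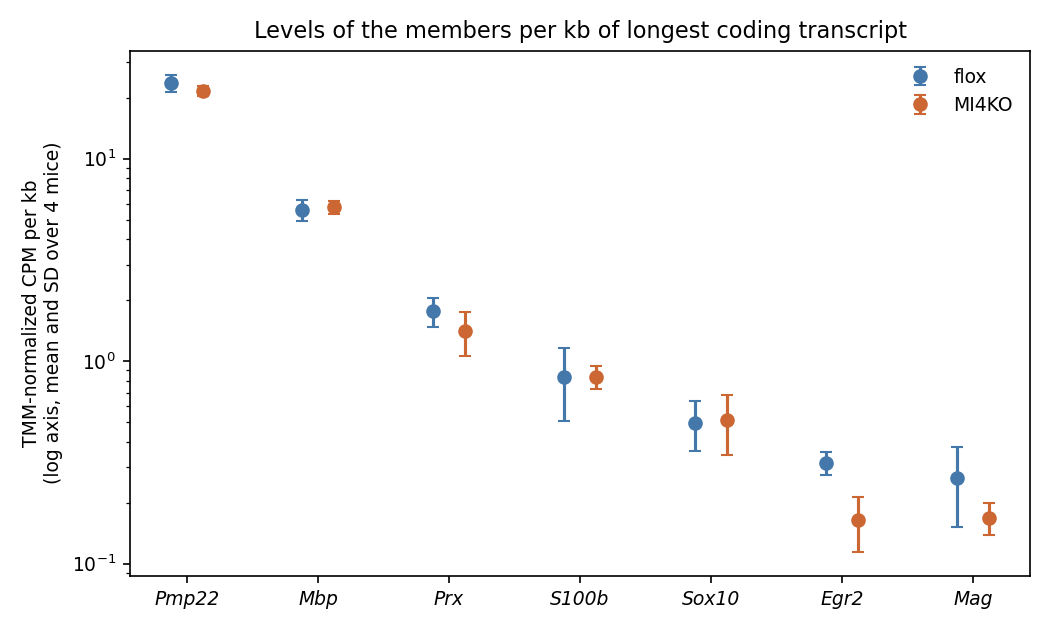
Mean TMM-normalized CPM per kb of the longest coding transcript (log axis) for each of the 7 genes in flox and MI4KO mice, with bars of 1 SD over 4 mice. Pmp22, at 22.6 per kb over all mice, stood highest, and the group means of Egr2 lay further apart than those of any other member on this axis.

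The 4 structural myelin genes come first. Mbp encodes myelin basic protein, which holds the inner faces of the compact myelin membranes together, and it lies on chromosome 18 from 82475146 to 82585637 of GRCm38. Its value was 28.9, 27.6, 28.9 and 22.2 in flox mice 1 to 4 and 27.9, 29.9, 24.8 and 27.7 in MI4KO mice 1 to 4. The groups overlapped throughout, with flox mouse 4 the lowest and MI4KO mouse 2 the highest of all mice. Group means were 26.9 ± 3.22 (SD, n = 4) in flox and 27.6 ± 2.11 (SD, n = 4) in MI4KO mice. Between the groups Mbp differed by a log2 fold change of 0.04 (SE 0.10, 95% interval -0.18 to 0.25, limma adjusted p = 1.0). The interval of the fold of value + 1 ran from 0.885 to 1.19. With 304 to 464 reads per mouse, Mbp bounded a group difference more closely than the factors did.

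Pmp22, whose product is an adhesive membrane protein of compact myelin, lies on chromosome 11 from 63128982 to 63159547 and was the member with the most reads, 517 to 702 per mouse. Flox mice were at 43.3, 40.2, 49.1 and 40.4, and MI4KO mice at 37.5, 38.7, 38.4 and 42.4. Of the MI4KO mice, 3 lay under every flox mouse, and MI4KO mouse 4 lay inside the flox range. For Pmp22 the log2 fold change was -0.13 (SE 0.083, 95% interval -0.31 to 0.05, limma unadjusted p = 0.136, adjusted p = 1.0), with p = 0.143 by exact two-sided permutation. Without flox mouse 3, the highest mouse, it was -0.071 (limma unadjusted p = 0.406).

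Prx encodes periaxin, a scaffold protein of the outer Schwann cell membrane that is needed to keep the sheath stable, and lies on chromosome 7 from 27499324 to 27520214. Its value was 9.35, 10.9, 10.6 and 7.50 in flox mice and 7.33, 9.12, 5.12 and 8.94 in MI4KO mice. MI4KO mouse 3 was by some way the lowest, and the other MI4KO mice lay within or just under the flox range. Prx varied 2.13-fold between the highest and the lowest mouse, on 77 to 157 reads, with a chi-square of 6.05 per degree of freedom where reads spread by counting alone give about 1. Prx had a log2 fold change of -0.31 (SE 0.16, 95% interval -0.67 to 0.05, limma unadjusted p = 0.083, adjusted p = 1.0), the largest among the 5 members tested by limma. Without MI4KO mouse 3 it was -0.15 (limma unadjusted p = 0.263), so the difference of Prx was over 1.5 times as large with that mouse as without it.

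Mag encodes myelin-associated glycoprotein, an adhesion molecule of the membrane layer next to the axon, and lies on chromosome 7 from 30899176 to 30914873 on the minus strand. Only 5 to 14 reads per mouse fell on Mag, which put it under the filter on low values. It was at 0.623, 0.555, 0.375 and 1.02 in flox mice and at 0.363, 0.517, 0.399 and 0.363 in MI4KO mice. Flox mouse 4 was highest and the groups overlapped. The difference in mean log2(value + 1) was -0.21, and exact two-sided permutation of the mice gave p = 0.0857. Without flox mouse 4 the difference was -0.10. With so few reads, a difference of this size in Mag was not detectable beyond the spread between mice.

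S100b encodes a calcium-binding protein found throughout the Schwann cell cytoplasm and widely used to stain these cells, and lies on chromosome 10 from 76253853 to 76261159. Its value was 1.37, 1.11, 1.80 and 0.656 in flox mice and 1.38, 1.36, 1.197 and 1.03 in MI4KO mice, so that both the highest and the lowest mouse were flox mice. S100b had a log2 fold change of 0.03 (SE 0.17, 95% interval -0.35 to 0.40, limma adjusted p = 1.0). At 9 to 24 reads per mouse, the interval of the fold of value + 1, from 0.786 to 1.32, left room for changes in either direction. At this level the added 1 narrows that interval. The SE was 0.27 by limma with 0.25 added in place of 1, and 0.38 by DESeq2 on the recovered reads.

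The 2 transcription factors come last. Sox10, on chromosome 15 from 79154908 to 79165240 on the minus strand, was at 1.31, 0.971, 1.35 and 1.89 in flox mice and at 1.74, 1.23, 0.864 and 1.87 in MI4KO mice, on 13 to 31 reads. The groups overlapped over nearly their whole range, with MI4KO mouse 3 the lowest. Sox10 had a log2 fold change of 0.02 (SE 0.18, 95% interval -0.37 to 0.41, limma adjusted p = 1.0).

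Egr2, on chromosome 10 from 67535475 to 67542188, was at 0.935, 1.11, 0.825 and 0.874 in flox mice and at 0.290, 0.646, 0.532 and 0.483 in MI4KO mice. Every MI4KO mouse was below every flox mouse, and Egr2 was the only one of the 7 members whose groups did not overlap. Among the 877 genes of similar level, with a mean value of 0.5 to 1, 1.71% were separate in the same direction, as were 1.7% of the genes tested by limma, where 2.07% were separate in either direction. Behind the values stand 54 reads in all flox mice together and 30 in all MI4KO mice, 4 to 16 per mouse. The ratio of the group means was 0.521, and the difference in mean log2(value + 1) was -0.38. Exact two-sided permutation of the mice gave p = 0.0286, the smallest that 4 mice against 4 can give, and this p is not adjusted for the 7 genes looked at. Egr2 was under the filter on low values. With no filter its adjusted p was 0.988 by limma (unadjusted p = 0.0022) and 0.919 by edgeR on the recovered reads (unadjusted p = 0.025), so the difference did not pass a test over all genes. Without a filter, 3.53% of genes had an unadjusted p under 0.05 by limma and 3.41% by edgeR. Groups that are separate stay so when any single mouse is left out, so leaving mice out does not test the separation of Egr2. The difference then lay between -0.43 and -0.32. The exact permutation p was then 0.0571, the smallest that 3 mice against 4 can give. Without both flox mouse 1 and MI4KO mouse 3 the difference was -0.40.

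Genes of the other cells that make Egr2 were set beside it. Of 7 immediate early genes, all had a lower mean log2 value in MI4KO mice, as 55.9% of all genes with a read did, and their values summed to 93.4–168 in flox and 58.8–185 in MI4KO mice. Of the 5 that were tested, 1 passed an unadjusted p of 0.05 by limma, as 3.36% of all genes tested did. This was Ier2, at a log2 fold change of -0.39 (SE 0.14, limma adjusted p = 1.0). All 5 were lowest in MI4KO mouse 1, which was also the mouse with the least Egr2. Of the 5, 4 had a negative log2 fold change by edgeR and DESeq2 on the recovered reads. Without MI4KO mouse 1, 3 were negative by limma, and the median of the 5 went from -0.39 to -0.16. Without MI4KO mouse 3, all 5 were negative, with a median of -0.56. Without flox mouse 4, MI4KO mouse 2 or MI4KO mouse 3, 2 of the 5 had an unadjusted p under 0.05 by limma. In these fits 273, 457 and 594 of all 11865 genes did. Egr1, the best known of the EGR family, was at 31.0, 12.6, 23.6 and 8.82 in flox mice and at 2.97, 30.2, 4.25 and 13.6 in MI4KO mice. MI4KO mouse 2 was thus above 3 of the 4 flox mice for Egr1 and below all 4 for Egr2. Egr3 was at 0.811, 1.60, 1.28 and 0.583 in flox mice and at 0.508, 0.840, 0.0665 and 0.725 in MI4KO mice. The 5 macrophage genes summed to 15.7–21.8 in flox and 16.5–20.04 in MI4KO mice. One of them, Adgre1, was higher in every MI4KO mouse (0.943 to 1.13) than in any flox mouse (0.675 to 0.873), a separation that 0.684% of the 877 genes of similar level showed. The part of these cells in the Egr2 result was not tested.

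**Figure D2:**
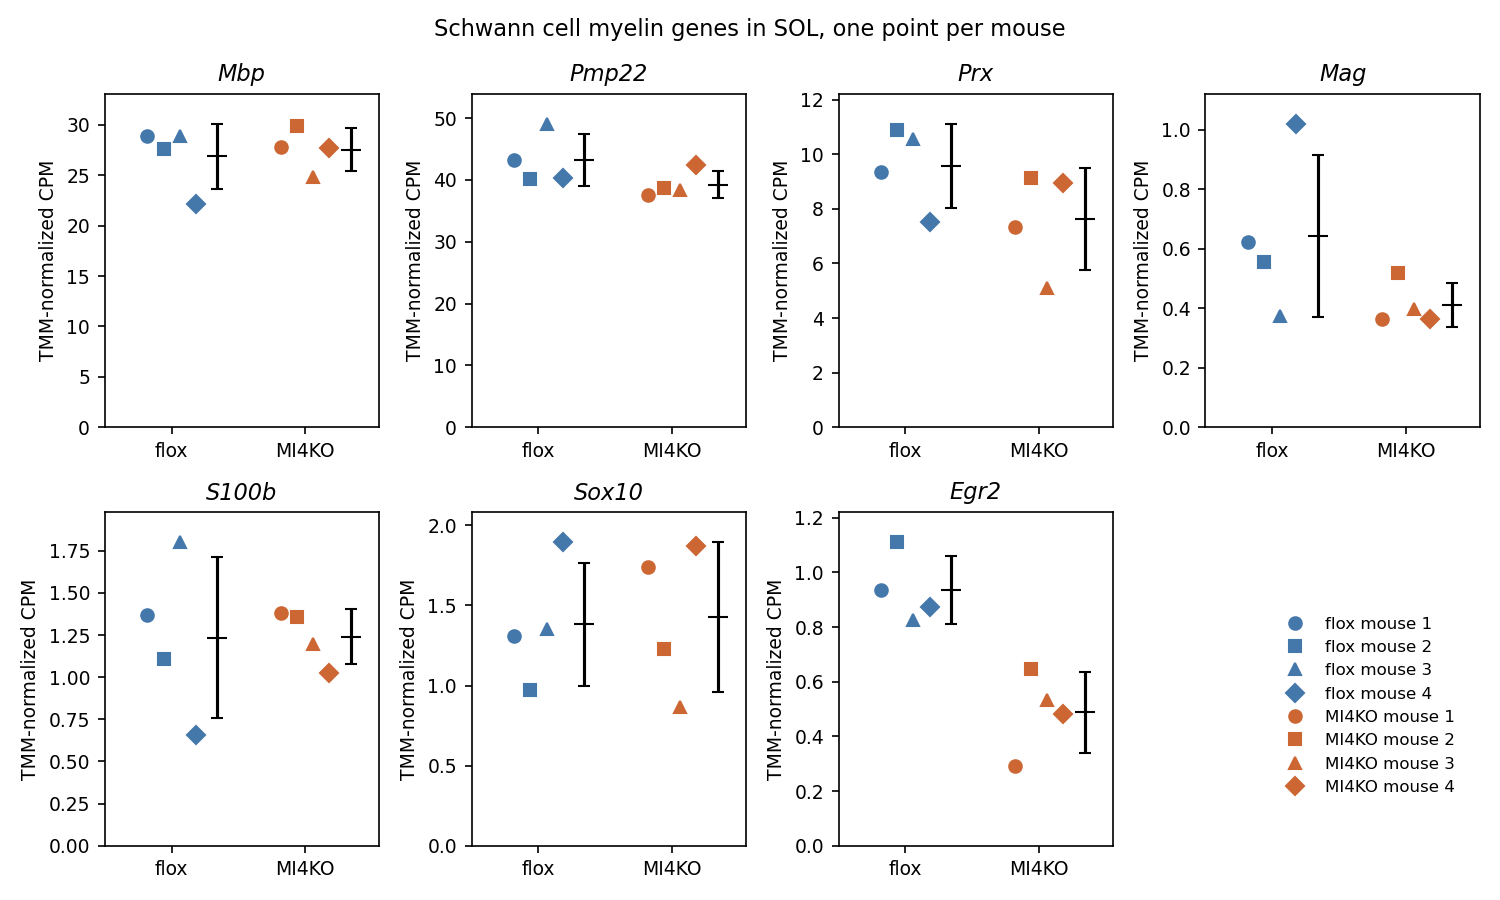
TMM-normalized CPM of each member in each mouse, with an axis from 0 in every panel. Symbols stand for mice 1 to 4 of a group, and black bars give the mean and SD of 4 mice. The groups are separate for Egr2, where flox mice lie at 0.825 or above and MI4KO mice at 0.646 or below, and overlap for the other 6 genes.

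Of the 7 members, 5 passed the filter, and none of the 5 had an adjusted p under 0.05 by limma, where 0% of all 11865 genes did, nor by edgeR or DESeq2 on the recovered reads. None of the 5 had an unadjusted p under 0.05 by limma either, while 3.36% of all genes did, and none was past an unadjusted p of 0.05 with a fold of 1.5, as 0.219% of all genes were. The members did not move as 1 block. Pmp22, Prx, Mag and Egr2 had lower means on the log2 scale in MI4KO mice, and Mbp, S100b and Sox10 were within 0.04 of no difference. The direction of Mbp, S100b and Sox10 turned when some single mice were left out.

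The same comparison was made for other genes of the myelin sheath. Of 20 such genes, 19 had a lower mean on the log2 scale in MI4KO mice, and Pmp2 was the exception. Among all genes with a read, 55.9% had a lower mean. Of the 20, 14 were tested, with log2 fold changes from -0.32 to -0.04 and a median of -0.12, where the median of all genes tested was -0.01. None of the 14 had an unadjusted p under 0.05 by limma, and the groups of none were separate. Each log2 fold change of the 14 was also below 0 after scaling by median-of-ratios factors or by library size. The share of all genes tested that was below 0 went from 56.2% as deposited to 49.1% and 40.1%. By edgeR and DESeq2 on the recovered reads 13 of the 14 were below 0, where 49.0% and 48.1% of all genes were. Without flox mouse 2, 3 or 4 there were also 13 (all genes: 61.5%, 50.3% and 55.5%). Without both flox mouse 1 and MI4KO mouse 3 there were 11, where 64.8% of all genes were below 0.

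Pllp, a proteolipid of the sheath, had the largest log2 fold change of the list, -0.32 (SE 0.17, limma unadjusted p = 0.088), on 8 to 28 reads. Cnp, an enzyme of the myelin membranes, was at -0.25 (SE 0.13). Drp2, the partner of periaxin in the outer membrane, had a log2 fold change of -0.07 with MI4KO mouse 3 and 0.24 without it, since its value there was 3.86 against 7.17 to 12.5 in the other mice. Without MI4KO mouse 3, 12 of the 14 tested sheath genes had a negative log2 fold change, where 66.6% of all genes tested did.

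**Figure D3:**
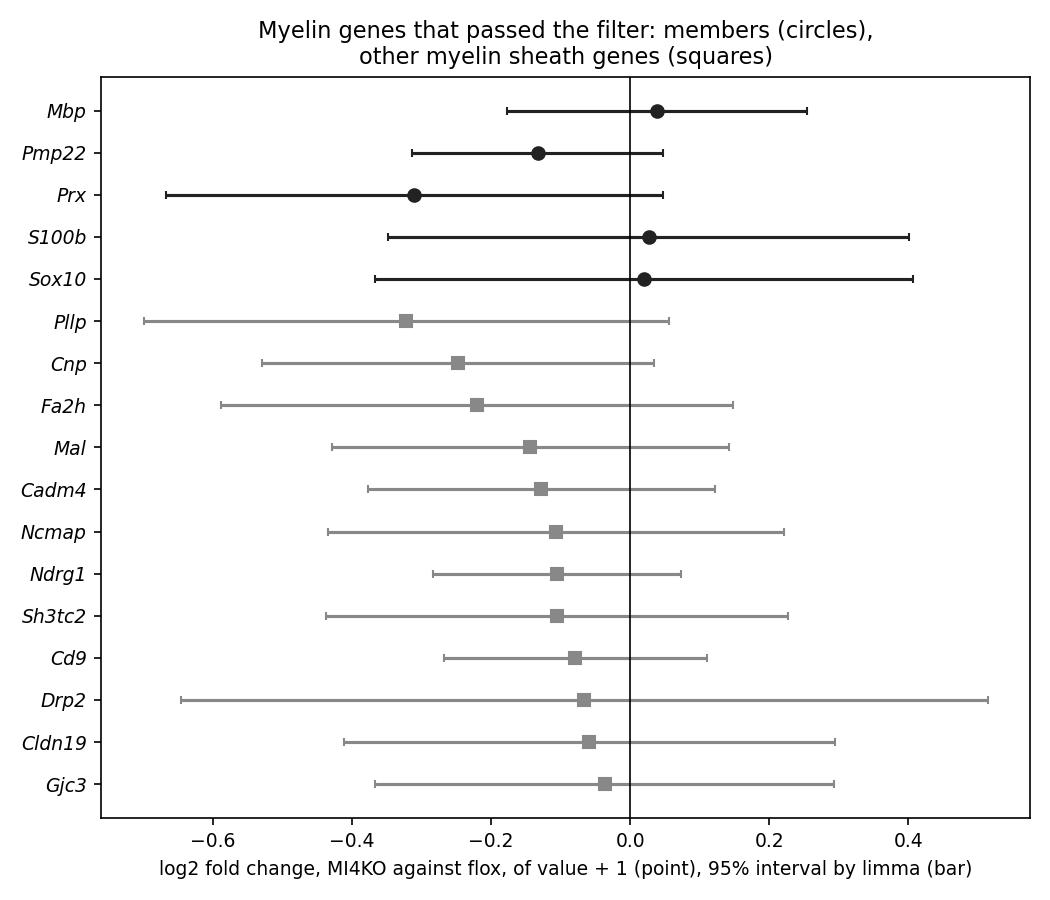
Log2 fold change of value + 1, MI4KO against flox, with its 95% interval by limma, for the 5 members (circles) and 12 of the other myelin sheath genes (squares) that passed the filter. The squares lie between -0.32 and -0.04, and the interval of every gene shown includes 0.

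Signals that drive myelination are listed next. Of 16 such genes, 13 were tested, 9 of them with a negative log2 fold change, or 6 after scaling by library size. Erbb3, the receptor by which Schwann cells read neuregulin from the axon, had a log2 fold change of -0.15 (SE 0.16), which was -0.060 without MI4KO mouse 3, and its partner Erbb2 of 0.05 (SE 0.14). Nab2, a protein that binds EGR factors and tunes their targets, was at -0.26 (SE 0.15, limma unadjusted p = 0.106) and at -0.14 without MI4KO mouse 3. Srebf1, a factor of lipid synthesis that muscle fibers also make, was the only gene of the list with an unadjusted p under 0.05, at 0.31 (SE 0.14, limma unadjusted p = 0.043, adjusted p = 1.0). Srebf1 reached 49.6 in MI4KO mouse 3 and 25.2 to 33.7 in the others, and without that mouse its log2 fold change was 0.15 (limma unadjusted p = 0.107). Pou3f1, a factor of the promyelinating stage, was under the filter, with means of 1.01 ± 0.221 (SD, n = 4) in flox and 0.836 ± 0.145 (SD, n = 4) in MI4KO mice.

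The remaining Schwann cell list held 14 genes of non-myelinating or repair cells, of which 5 were tested, 4 with a negative log2 fold change and none with an unadjusted p under 0.05 by limma. Ncam1 and Jun, which muscle fibers and other cells also make, carried most of the reads on this list. Genes more restricted to Schwann cells in these states were scarce. Ngfr, the low-affinity neurotrophin receptor, had 2 to 13 reads, Gap43 0 to 4, Gfap 0 to 2 and Sox2 0 to 2 per mouse, and a difference between groups was not detectable for them at this depth.

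The members were then described by mouse, through averages over sets of genes. The mean of log2(value + 1) over Mbp, Prx and Mag, called the myelin average, was 2.99, 3.02, 2.96 and 2.88 in flox mice and 2.78, 2.96, 2.60 and 2.87 in MI4KO mice. The groups overlapped, and MI4KO mouse 3 was lowest with MI4KO mouse 1 next. The difference of the group means was -0.16, and -0.09 without MI4KO mouse 3. Of its genes, Mbp differed by 0.04, Prx by -0.31 and Mag, on few reads, by -0.21. Over the 8 mice, Pearson r was 0.59 for Mbp and Prx, 0.02 for Prx and Mag, and -0.61 for Mbp and Mag. The myelin average is therefore not taken as a measure of nerve content. The average over all 7 members differed by -0.14, and that over the 13 other sheath genes whose mean value reached 1 by -0.16, and in both averages MI4KO mice 3 and 1 were again the lowest. The mouse numbers fall into 2 ranges, which the labels do not call batches. The myelin average differed by -0.12 among the 3 mice of the lower range, 1 of which is a flox mouse, and by -0.22 among the 5 mice of the higher range. Egr2 differed by -0.41 in the lower range and by -0.36 in the higher. Irf4, the deleted gene, differed by 0.08 in the lower range and by -0.68 in the higher. The flox mouse of the lower range was flox mouse 1, which had the high sum of liver markers.

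**Figure D4:**
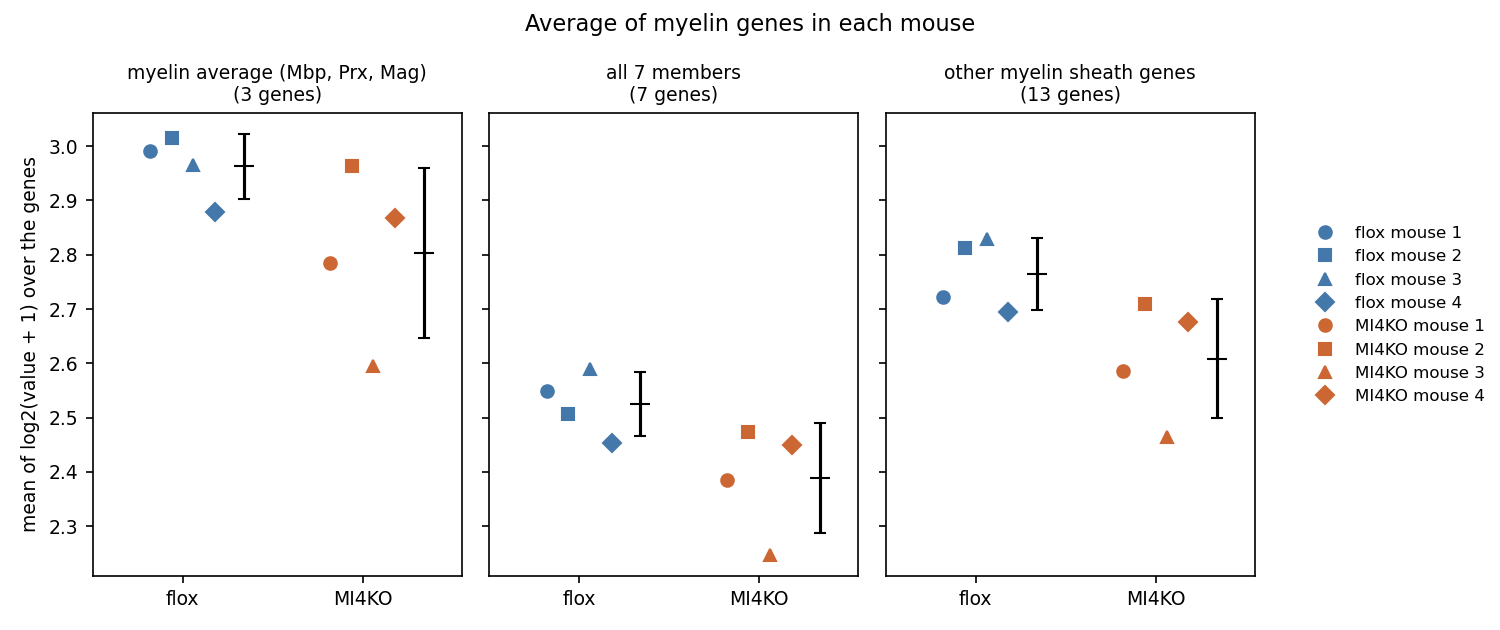
Mean of log2(value + 1) in each mouse over Mbp, Prx and Mag (left), all 7 members (middle) and 13 other myelin sheath genes (right), with black bars for the mean and SD of 4 mice. The vertical axis does not start at 0. MI4KO mouse 3 is the lowest mouse in each panel, at 2.60, 2.25 and 2.46, and MI4KO mouse 1 the next.

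MI4KO mouse 3 was singled out above as the lowest in averages of members and sheath genes, and the counts here share those genes. Over the members and the other 3 Schwann cell lists, 13 of the 37 genes tested, or 35.1%, were lowest in that mouse. Of these 13, 2 were members and 6 other sheath genes, so the share is not independent of that choice. The same mouse was lowest for 13.3% of all genes tested and highest for 30.9% of them. The 37 genes include Srebf1, Ncam1 and Jun, which muscle fibers also make, so the share does not describe nerve alone. Of these, Ncam1 was lowest in MI4KO mouse 3, Srebf1 was highest in that mouse, and Jun was lowest in flox mouse 4. MI4KO mouse 1 was lowest for 9 of the 37 genes and for 19.0% of all genes tested.

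Pairs of members did not rise and fall together closely over the 8 mice. Of 21 pairs, 13 had a positive Pearson correlation of log2(value + 1), with a median r of 0.11 and a range from -0.70 to 0.80. No pair had an adjusted p under 0.05 in exact permutation tests over all pairings. The pair with the highest r was Mbp and S100b (Pearson r = 0.80, exact permutation p = 0.0192, adjusted p = 0.403, Spearman rho = 0.69, exact permutation p = 0.0694, adjusted p = 0.486), and r was 0.55 without flox mouse 4 and MI4KO mouse 3, the mice farthest from the median of Mbp. By rank the closest pair was Mag and Egr2 (rho = 0.81, exact permutation p = 0.0218, adjusted p = 0.457, Pearson r = 0.57, exact permutation p = 0.133, adjusted p = 0.452), and its r was 0.70 without flox mice 4 and 1. Both genes had few reads. Sox10 and Egr2, the 2 factors, had an r of -0.34 (exact permutation p = 0.411, adjusted p = 0.788) and a rho of -0.24 (exact permutation p = 0.582, adjusted p = 0.876), and r was -0.86 without MI4KO mouse 3 and flox mouse 4. The ranges of mouse numbers hold 3 and 5 mice, too few for a correlation within each.

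The genes whose values over the 8 mice were most like the myelin average were Tspan13, Zc2hc1a, Cd97, Trib2, Fst, Fancc, Amer1, Hmgn3, Apod and Syt15, with a Pearson r from 0.92 to 0.98 on the log2 scale. They were the 10 highest of 11860 genes ranked, whose median r was -0.17. These genes shared the low values of MI4KO mice 3 and 1, and without both mice the r of the 10 fell to between 0.48 and 0.89. Tspan13, the first, encodes a tetraspanin membrane protein and was at 32.0, 36.4, 33.7 and 30.0 in flox mice and at 24.4, 33.0, 20.7 and 29.9 in MI4KO mice. Apod, a lipid carrier that Schwann cells and fibroblasts make, was at 14.6 in MI4KO mouse 3 and at 18.1 to 22.6 elsewhere. Of the listed Schwann cell genes, Sh3tc2, a gene of Charcot-Marie-Tooth neuropathy, came closest outside the members, at rank 132 (r = 0.83, and 0.21 without MI4KO mice 3 and 1). These r values describe 8 mice and carry no test.

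Markers of other cells that could supply the members were measured as well. The 7 oligodendrocyte genes were all under 3 reads in every mouse, and Opalin, Olig1 and Olig2 were at 0 in all of them, which allows values of up to 0.225. Of the melanocyte genes, Mlana was at 0 in every mouse, Pmel had 0 to 4 reads, and Dct and Tyr had 28 to 74 and 17 to 32 reads. The 4 melanocyte genes summed to 3.74–4.50 in flox and 3.08–6.31 in MI4KO mice. The 7 adipocyte genes, most of all Fabp4, summed to 240.2–302 in flox and 181–271 in MI4KO mice, with MI4KO mouse 1 the lowest for 5 of the 6 tested. Of these 6, 5 had a negative log2 fold change, with a median of -0.33, and Cfd, the adipocyte serine protease adipsin, had an unadjusted p under 0.05 (log2 fold change -0.65, SE 0.28, limma unadjusted p = 0.039, adjusted p = 1.0). Of all genes tested, 3.36% had an unadjusted p under 0.05 by limma. Without MI4KO mouse 1, 4 of the 6 adipocyte genes were negative, with a median of -0.13, and none had an unadjusted p under 0.05. Without MI4KO mouse 4, all 6 were negative, with a median of -0.61, and 3 had an unadjusted p under 0.05. Without flox mouse 1, 5 were negative and 2 had such a p. In the fits without MI4KO mouse 4 and without flox mouse 1, 618 and 440 of all 11865 genes had such a p. The 5 fibroblast genes summed to 297–393 in flox and 241–386 in MI4KO mice. Endothelial genes, whose vessels run beside nerves in muscle, were lowest in MI4KO mouse 1 for 5 of 5, and 2 of them, Kdr and Cdh5, had an unadjusted p under 0.05 by limma, with log2 fold changes of -0.37 (SE 0.14) and -0.29 (SE 0.12) and adjusted p = 1.0. None of the 5 had an unadjusted p under 0.05 without MI4KO mouse 1, flox mouse 2 or flox mouse 3. After scaling by library size none had one either. Their median went from -0.26 to -0.15 without MI4KO mouse 1. Without flox mouse 1, MI4KO mouse 3 or MI4KO mouse 4, 3 of the 5 had an unadjusted p under 0.05. In these fits 440, 594 and 618 of all 11865 genes did. Without both flox mouse 1 and MI4KO mouse 3, 4 did, with a median of -0.32, where 637 of all genes did. All 5 log2 fold changes were negative in every alternative. The part of these cells in the values of the members was not tested.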

How the data were processed

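SOL RNA of 4 MI4KO and 4 flox mice was sequenced as stranded poly(A) libraries with single reads of 50 bases. Per the labels and the study's methods, the authors mapped reads to UCSC transcripts with Bowtie2 2.1.0 (build mm10; bcl2fastq 2.17 was used before mapping), estimated expression with RSEM 1.2.15 and scaled libraries by TMM. Deposited per gene and mouse is a signal in CPM after that scaling. The authors' own fold changes, p-values and FDR from edgeR stand beside it and were not used. Of 24054 genes, 6086 had no read.

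Whole reads were recovered by dividing values by the step of each mouse, and 100% of non-zero values came out whole within 0.1 of a read. Totals were 13417512 to 16384565 reads, and floors cover counting error only. No pair of mice was taken for 1 library.

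Groups were compared with limma 3.58.1 (R 4.3.3) on log2(value + 1), with a trend of variance on mean and without covariates, for genes that reached 1 in 4 or more of the 8 mice, with Benjamini-Hochberg adjustment over all genes tested. Single genes, and the 21 pairs of members, were tested by exact two-sided permutation (scipy 1.17.1). The fit was tested on simulated counts. After seeing the data, count tests by edgeR 4.0.16 and DESeq2 1.42.0 were added on recovered reads, and without a filter edgeR called 307 genes at a fold of 1.5 and an unadjusted p of 0.05. The other alternatives were another pseudocount, no filter, other scalings and variance models, a covariate for the range of mouse numbers, and each mouse left out.

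Named genes are the 7 members, the genes of 15 marker and pathway lists, Irf4 and the 10 genes most like the myelin average. The members and the lists were chosen with earlier results of these data known. Positions are from GENCODE M21 (GRCm38), looked up by symbol. Single values of 2 genes of the sheath list are not reported here.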

Additional observations from a re-analysis of the deposited data

Results flagged for a closer look

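Of 96 groups of 4 mice examined for a mouse far from the others, 1 stood out, where chance gives about 1 in 20, or 4.8 groups. Nfatc4, a factor of calcineurin signalling, was at 2.03 in MI4KO mouse 1, against 2.90 to 2.99 in the other 3, so that the gap took up 0.917 of that group's range. Nfatc4 had a log2 fold change of -0.10 (SE 0.15, limma adjusted p = 1.0), and no member of the Schwann cell genes had such a mouse in either group.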

How the results depend on the processing

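Pmp22, Prx and Mag kept a negative difference in every alternative in which they were fitted (19 each for Pmp22 and Prx, 14 for Mag). The ranges were -0.17 to -0.07, -0.41 to -0.15 and -0.62 to -0.10 on the log2 scale, with an adjusted p of at least 0.918. The -0.62 of Mag is an edgeR fold change of reads, which is another scale. With 1 added to the values, the difference of Mag ran from -0.29 to -0.10. With single mice left out, the log2 fold change of Mbp ran from -0.048 to 0.087 and changed sign without flox mouse 4 and without MI4KO mouse 2. That of S100b ran from -0.11 to 0.14 and turned without flox mouse 4 and without MI4KO mouse 1, and it was -0.013 with a covariate for the range of mouse numbers. That of Sox10 ran from -0.068 to 0.14 and turned without flox mouse 2 and without MI4KO mouse 1 or 4. The difference of Egr2 was -0.43 to -0.32 with 1 mouse left out and -0.40 without both flox mouse 1 and MI4KO mouse 3. It was -0.38 with no filter (limma, adjusted p = 0.988) and -0.90 by edgeR without a filter (adjusted p = 0.919). That edgeR value is a fold change of reads and not of value + 1, so it is on another scale. None of these is past the threshold. Leaving out mice cannot reach it, since 3 mice against 4 allow no exact p under 0.0571. For Prx the unadjusted p by limma was 0.032, 0.042 and 0.049 without flox mouse 4, MI4KO mouse 2 and MI4KO mouse 4. In these fits 273, 457 and 618 of all 11865 genes had an unadjusted p under 0.05, and the adjusted p of Prx was at least 0.949. Leaving out each of the other mice gave Prx an unadjusted p of 0.117 to 0.263 by limma.

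Genes with an adjusted p under 0.05 numbered 0, or 0 to 1 with single mice left out and 1 without both flox mouse 1 and MI4KO mouse 3. Genes past a fold of 1.5 and an unadjusted p under 0.05 numbered 26, and 60 with a pseudocount of 0.25, 13 with robust estimation, 19 to 58 with single mice left out, 41 without both mice, 65 by edgeR, 307 by edgeR without a filter and 51 by DESeq2. The cause of these moves was not tested. The split of the genes at an unadjusted p under 0.05 depended on the scaling: 87.7% were lower in MI4KO mice as deposited, 67.3% after median-of-ratios scaling and 33.4% after library-size scaling. The myelin average stayed negative in its 12 alternatives, from -0.21 to -0.08, and no pair of members reached an adjusted p under 0.05 in the 11 alternatives run. No paired analysis was run, since the mouse numbers in the labels do not say which mice were littermates. Mag, Egr2, S100b and Sox10 rest on 4 to 31 reads per mouse, which limits what can be seen for them.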

Other observations

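Genes of the perineurium, axons and innervation gave values outside the comparisons above. Of 4 perineurial genes, which mark the sheath around a nerve fascicle, 3 were tested and none had an unadjusted p under 0.05 by limma. Itgb4, an integrin subunit of perineurial and Schwann cells, was nearest, with a log2 fold change of -0.28 (SE 0.13, limma unadjusted p = 0.052, adjusted p = 1.0), and Slc2a1, a glucose transporter of barrier cells, was at 0.17 (SE 0.092). Of 9 neuronal genes, only Stmn2 and Uchl1 were tested, at 0.0013 (SE 0.12) and 0.11 (SE 0.14), and Nefh and Chat had no read in any mouse. Without MI4KO mouse 3, Uchl1 was at 0.24 (SE 0.11, limma unadjusted p = 0.048). In that fit 594 of all 11865 genes had an unadjusted p under 0.05. The values of Uchl1 were 18.7 to 31.5, while Tubb3 of the same list was at 0.145 to 0.874. Which cells made Uchl1 was not tested.

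Of 8 genes that rise when a muscle loses its nerve, 6 were tested and none had an unadjusted p under 0.05 by limma. Chrna1, the acetylcholine receptor subunit, was at -0.03 (SE 0.081) and Myog, a myogenic factor, at -0.04 (SE 0.15), or 0.063 without MI4KO mouse 3. Myh3, embryonic myosin, was lowest in MI4KO mouse 3, with a log2 fold change of -0.70 (SE 0.37, limma unadjusted p = 0.083), and without that mouse it was at -0.25 (limma unadjusted p = 0.256). The 7 slow fiber and muscle genes summed to 70438–85163 in flox and 68095–80079 in MI4KO mice, and none had an unadjusted p under 0.05 by limma.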
